A study of Mus musculus with 9 samples.

Results

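Onecut1, Onecut2, Onecut3 and Pou2f2 are 4 transcription factor genes whose levels were followed cell by cell in GABAergic neurons sorted from the developing mouse ventral midbrain. They were chosen by symbol, as 4 of the 32695 entries other than spike-in controls in the deposited count table, and were read in the 2035 of 3455 wells that had at least 2000 genes, at most 50000 counts and under 15% mitochondrial counts. All cells came from mice carrying VGAT-Cre, Ai14 and Pitx3-GFP together (VGAT-Cre:Ai14:Pitx3-GFP), where Cre from the VGAT (Slc32a1) locus switches on tdTomato in GABAergic neurons, present and past, and Pitx3-GFP marks the midbrain dopamine system. VGAT wells held cells sorted for tdTomato, on 4 plates from E16.5 embryos (1026 cells) and 3 plates from P0.5 newborn pups (434 cells). VGAT+Pitx3 wells held cells sorted for tdTomato and GFP together, on 1 plate at each stage (304 and 271 cells). The labels write the stages as E16 and P0. Brains of several litters were used at each stage and the labels do not tie a plate to an animal, so p-values measure only the spread between plates, which may be technical.

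In the GENCODE annotation of GRCm38, the build to which the reads were aligned, Onecut1 is at chr9:74861921-74891781 on the plus strand, Onecut2 at chr18:64340020-64400987 (plus), Onecut3 at chr10:80494835-80517276 (plus) and Pou2f2 at chr7:25087344-25179726 (minus). The long non-coding gene Gm20649 overlaps Onecut1 on the same strand except at its 3′ end (it ends at 74891476), and D930028M14Rik lies inside Pou2f2 on the opposite strand. Whether counting used the strand was not stated, so reads of such overlapping genes cannot be told apart with certainty.

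Onecut proteins bind DNA through a single cut domain next to a homeodomain. Onecut1, also known as Hnf6, is best known from liver and pancreas, and all 3 family members are made by young neurons of the spinal cord, brain and retina. Pou2f2, also known as Oct2, carries a POU domain and is best known from B cells. In the embryonic neural tube Onecut factors mark neurons that leave the cell cycle early, Pou2f2 with Zfhx3 and Zfhx4 marks a following wave, and the Nfi factors Nfia, Nfib and Nfix with Neurod2 and Neurod6 mark the latest ones. Six3 and Pax5 are transcription factor genes that mark separate classes of neurons of the substantia nigra pars reticulata in this tissue.

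Because the Onecut genes are similar in sequence and their joint presence in cells is described further on, the most alike stretch of coding sequence between Onecut1 and Onecut3 is shown. It is part of the region that encodes the cut domain, is 240 bases long and crosses an exon junction in both genes. Coding positions 868 to 1107 of Onecut1 lie within chr9:74863164-74889307 and positions 946 to 1185 of Onecut3 within chr10:80495953-80513858, both on the plus strand, and capitals mark the 30 bases at which the stretches differ.
Onecut1: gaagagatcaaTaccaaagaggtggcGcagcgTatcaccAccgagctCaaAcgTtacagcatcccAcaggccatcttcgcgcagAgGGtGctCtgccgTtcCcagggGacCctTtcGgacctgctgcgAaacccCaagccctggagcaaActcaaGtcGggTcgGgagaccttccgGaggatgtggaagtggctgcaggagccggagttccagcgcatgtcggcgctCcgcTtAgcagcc
Onecut3: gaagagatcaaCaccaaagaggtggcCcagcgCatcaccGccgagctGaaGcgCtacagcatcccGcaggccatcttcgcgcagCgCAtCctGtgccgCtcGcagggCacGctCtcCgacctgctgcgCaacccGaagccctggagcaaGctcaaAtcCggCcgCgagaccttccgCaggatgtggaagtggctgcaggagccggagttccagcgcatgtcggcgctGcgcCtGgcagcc

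The stretches matched at 210 of 240 bases (87.5%). The best windows of the same length matched at 86.7% between Onecut1 and Onecut2 and at 88.3% between Onecut2 and Onecut3. Over the annotated exons, Onecut1 and Onecut3 had 1 run of 50 bases in common, of 4062 and 4684 possible runs, and the other pairs of Onecut genes had 0. The labels give this length for the cDNA read, and the study's methods give a longer one. These runs are exact matches in exons, and whether reads were assigned to the wrong Onecut gene was not tested.

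Depth differed between plates. The 7 VGAT plates summed to between 1434306 and 5403472 counts over the cells kept, with the lowest total on the 44 cells of VGAT P0.5 replicate 1, and the VGAT+Pitx3 plates to 4605872 and 2335152. Median counts per cell were 7039 to 33236 on the VGAT plates, and 13855 and 7462 on the VGAT+Pitx3 plates. No cell kept had the same counts as another. A level at which 3 counts would be expected on a plate lay between 0.555 and 2.09 CPM, the counts of a gene relative to the total of its plate. The CPM levels given for plates and for classes of cells are relative to totals scaled by edgeR's TMM method, while pooled ratios and levels by number of Onecut genes are relative to plain totals. The deposited column names carried a pair of plate labels that disagreed for 6 of 9 plates, and the first was used. The dopamine neuron gene Pitx3 was at 147 and 78.0 CPM on the VGAT+Pitx3 plates and at 0 to 0.382 CPM on the VGAT plates, as those labels say, and the summed level of 9 dopamine neuron genes was 5072 to 6470 CPM against 114 to 173 CPM.

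Onecut1 was at 11.8, 8.60, 8.56 and 11.3 CPM on the 4 VGAT E16.5 plates and at 8.74, 15.6 and 13.1 CPM on the 3 VGAT P0.5 plates. On the VGAT+Pitx3 plates it had 1 count (0.226 CPM) at E16.5 and 0 counts at P0.5. Every VGAT plate was thus above both VGAT+Pitx3 plates, and the VGAT stages overlapped.

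Onecut2 was at 74.4, 47.9, 70.6 and 86.7 CPM on the VGAT E16.5 plates and at 28.3, 58.9 and 52.3 CPM on the VGAT P0.5 plates. The VGAT+Pitx3 plates were at 22.4 CPM at E16.5 and 18.4 CPM at P0.5, below all 7 VGAT plates. The stages again overlapped within the VGAT sort.

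Onecut3 was at 6.41, 7.30, 3.42 and 4.96 CPM on the VGAT E16.5 plates and at 0, 11.1 and 3.80 CPM on the VGAT P0.5 plates. It was at 0 CPM on the VGAT+Pitx3 plate of E16.5 and at 1.35 CPM (3 counts) on that of P0.5. The plate at 0 among the VGAT plates was VGAT P0.5 replicate 1, the one with the fewest cells, so the sorts overlapped for this gene.

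Pou2f2 was at 186, 165, 118 and 158 CPM on the VGAT E16.5 plates and at 223, 119 and 148 CPM on the VGAT P0.5 plates. The VGAT+Pitx3 plates had 98.8 CPM at E16.5 and 73.1 CPM at P0.5. Both lay below the lowest VGAT plate. Here and below, the share of all genes whose plate values separated without overlap was not counted. Pooled over plates, the level in VGAT cells was 1.80 times that in VGAT+Pitx3 cells, with a counting interval of 1.65 to 1.96.

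**Figure D1:**
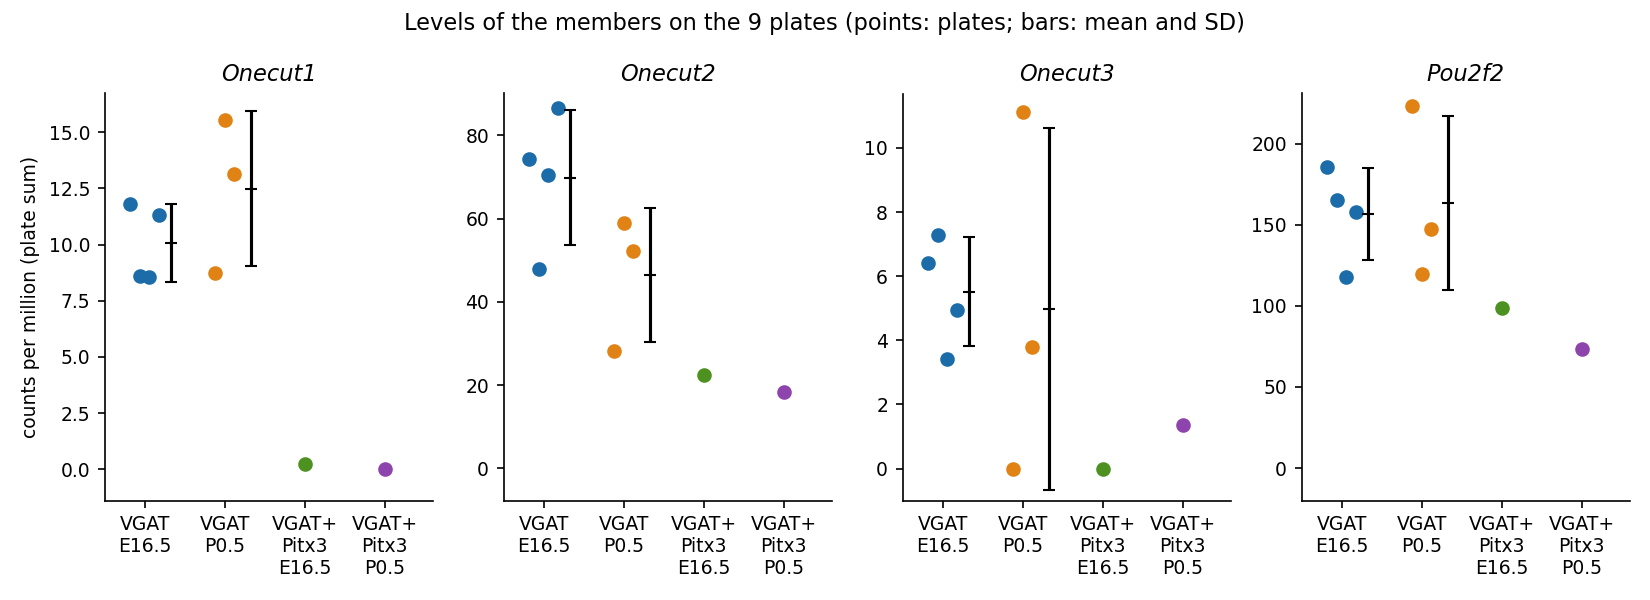
Each panel plots one member on its own linear axis, in CPM on TMM-scaled totals, with one point per plate for VGAT E16.5 (4 plates), VGAT P0.5 (3 plates) and the single VGAT+Pitx3 plate of each stage, and with the mean and SD drawn where a group had more than 1 plate. Onecut1, Onecut2 and Pou2f2 were lower on both VGAT+Pitx3 plates than on all 7 VGAT plates, and the VGAT stages overlapped for all 4 genes. How many of all genes separated the sorts in this way was not counted.

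The first comparison asked how the members differed between cells sorted with and without the dopamine lineage marker. Of the 4 members, 3 were lower in VGAT+Pitx3 cells in a test across all genes (edgeR's quasi-likelihood test on plate sums with stage as a covariate, Benjamini-Hochberg adjustment), where 4.20% of the 14624 genes tested were called lower, 4.73% higher and 8.93% in either direction. Onecut1 fell by 5.90 on the log2 scale (SE 0.62, adjusted p = 1.30e-05), from 11.1 ± 2.67 CPM (SD, n = 7 plates) to 1 count in 575 cells. Pooled over plates, its level in VGAT cells was 74.2 times that in VGAT+Pitx3 cells, with a counting interval of 13.2 to 2942. Onecut2 fell by 1.53 (SE 0.27, adjusted p = 0.00179), from 59.8 ± 19.3 CPM (SD, n = 7) to 20.4 ± 2.83 CPM (SD, n = 2), so that transcripts of this family member were still present in cells of the dopamine lineage sort. Pou2f2 fell by 0.87 (SE 0.23, adjusted p = 0.0238), to 86.0 ± 18.2 CPM (SD, n = 2). Onecut3 had a log2 difference of -3.40 (SE 1.09) that did not pass (adjusted p = 0.0726), with a pooled ratio of 12.4 (counting interval 4.15 to 60.7).

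Six3 was 7.0 lower on the log2 scale in the same test and Pax5 4.43 lower. As these are sums over cells, fewer cells with a transcript and less of it in each cell cannot be told apart in the sums. With 1 VGAT+Pitx3 plate per stage the spread rested almost entirely on the VGAT plates: without the VGAT+Pitx3 plate of E16.5 the calls for Onecut2 (adjusted p = 0.115) and Pou2f2 (0.0827) were lost, and without that of P0.5 the call for Pou2f2 (0.327).

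Genes of the same developmental sequence and of the same protein families were read beside the members. Of the other genes of the temporal sequence, 5 of 6 tested were lower in VGAT+Pitx3 cells, by 1.04 for Zfhx4, 1.08 for Nfia, 1.34 for Nfix, 1.65 for Nfib and 1.73 for Neurod6 on the log2 scale, and Zfhx3 (-0.42, edgeR adjusted p = 0.163) was the one that did not pass. The list's median was -1.21, against -2.47 for the 4 members and -0.000681 for all genes tested. Among other genes with a cut domain, the chromatin organizer gene Satb1 fell by 1.12, and Cux1 and Cux2 did not pass. Among other POU genes, Pou3f2 rose by 1.81.

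The stage comparison asked what changed between E16.5 and P0.5 in VGAT cells. None of the 4 members passed, where 4.58% of 13639 genes were called, 2.84% higher at P0.5 and 1.74% lower. Mean levels were 10.1 ± 1.74 CPM at E16.5 (SD, n = 4) and 12.5 ± 3.45 at P0.5 (SD, n = 3) for Onecut1, with a log2 difference of 0.35 and an adjusted p of 0.429. They were 69.9 ± 16.2 and 46.5 ± 16.1 for Onecut2 (-0.55, adjusted p = 0.169), 5.52 ± 1.70 and 4.97 ± 5.65 for Onecut3 (-0.13, adjusted p = 0.923), and 157 ± 28.6 and 163 ± 53.7 for Pou2f2 (0.06, adjusted p = 0.876). Among the later genes of the sequence Nfib fell by 0.95 and Zfhx4 by 0.87, and the POU gene Pou3f3 fell by 1.06. The difference of the stage change between sorts was called for no member. Across all genes edgeR called 0 (0.00%) of 15724, with 998 at an unadjusted p under 0.05, and DESeq2 called 4.

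Counts per cell showed how the levels were made up. Over 1460 VGAT cells, Onecut1 had 282 counts in 105 cells, Onecut2 1691 counts in 477 cells, Onecut3 141 counts in 44 cells and Pou2f2 4099 counts in 987 cells. The median in cells with the gene was 2 counts for each of the 4. The highest cell held 14 counts of Onecut1, 139 of Onecut2, 13 of Onecut3 and 69 of Pou2f2. A few cells therefore carried much of the Onecut signal: the 73 cells with most Onecut1 held 88.7% of its counts, and the same number of cells held 55.4% of the Onecut2 counts and 35.2% of the Pou2f2 counts. Cells with 10 or more Onecut2 counts numbered 31 and were found on all 7 VGAT plates, between 1 and 8 on each, and on neither VGAT+Pitx3 plate.

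Deeper cells show more genes, so shares were compared after each cell had been thinned to 4000 counts, which left out 79 shallower cells, 52 of them VGAT. Onecut1 was then found in 2.97% ± 1.08 (SD, n = 4) of cells on VGAT E16.5 plates and 4.48% ± 0.291 (SD, n = 3) on VGAT P0.5 plates. Among the VGAT+Pitx3 cells it was found in 0 of 548, which allows a share of cells with a count at this depth of up to 1.00% on the E16.5 plate and 1.20% on the P0.5 plate. These limits do not bound the share of cells that express the gene. Onecut2 was found in 15.3% ± 3.07 and 12.4% ± 2.63 of VGAT cells at the E16.5 and P0.5 stages. On the VGAT+Pitx3 plates the share was 8.03% (95% exact binomial interval 5.21 to 11.7) and 6.02% (3.41 to 9.74).

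Onecut3 was found in 1.55% ± 0.423 and 1.57% ± 2.23 of VGAT cells, with 8 of its 24 thinned cells on VGAT P0.5 replicate 2 and 0 on VGAT P0.5 replicate 1, and in 2 of 548 VGAT+Pitx3 cells. Pou2f2 was found in 37.5% ± 8.69 and 35.7% ± 8.43 of VGAT cells and in 26.4% (21.5 to 31.8) and 24.1% (18.9 to 29.9) of VGAT+Pitx3 cells. Pitx3, which tdTomato cells without GFP should lack, was found in 1 of 1408 thinned VGAT cells. The intervals and limits cover counting error only.

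Most cells with Onecut1 or Onecut3 had another Onecut gene as well. With all counts used, 944 VGAT cells had no Onecut gene, 392 had Onecut2 alone, 27 Onecut1 alone and 12 Onecut3 alone. Onecut1 and Onecut2 without Onecut3 were found in 53 cells, Onecut2 and Onecut3 without Onecut1 in 7, and all 3 genes in 25. Not one cell had Onecut1 and Onecut3 without Onecut2. The 25 cells with all 3 genes were spread over 6 of the 7 VGAT plates, with 4 or 5 on each. Only VGAT P0.5 replicate 1, with 44 cells, had 0.

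Cells with several Onecut genes also held most of the Onecut1 and Onecut3 transcripts. The 85 cells with 2 or 3 Onecut genes carried 86.2% of all Onecut1 counts, 91.5% of all Onecut3 counts and 47.5% of all Onecut2 counts. Onecut1 and Onecut3 had a median of 1 count in cells with no other Onecut gene, with at most 3 and 1 counts, against medians of 2 and 3 counts and maxima of 14 and 13 in cells with 2 or 3 Onecut genes. For Onecut2 the medians were 2 and 4 counts. The cells with all 3 genes were deeper (median 22153 counts) than those with none (15154).

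**Figure D2:**
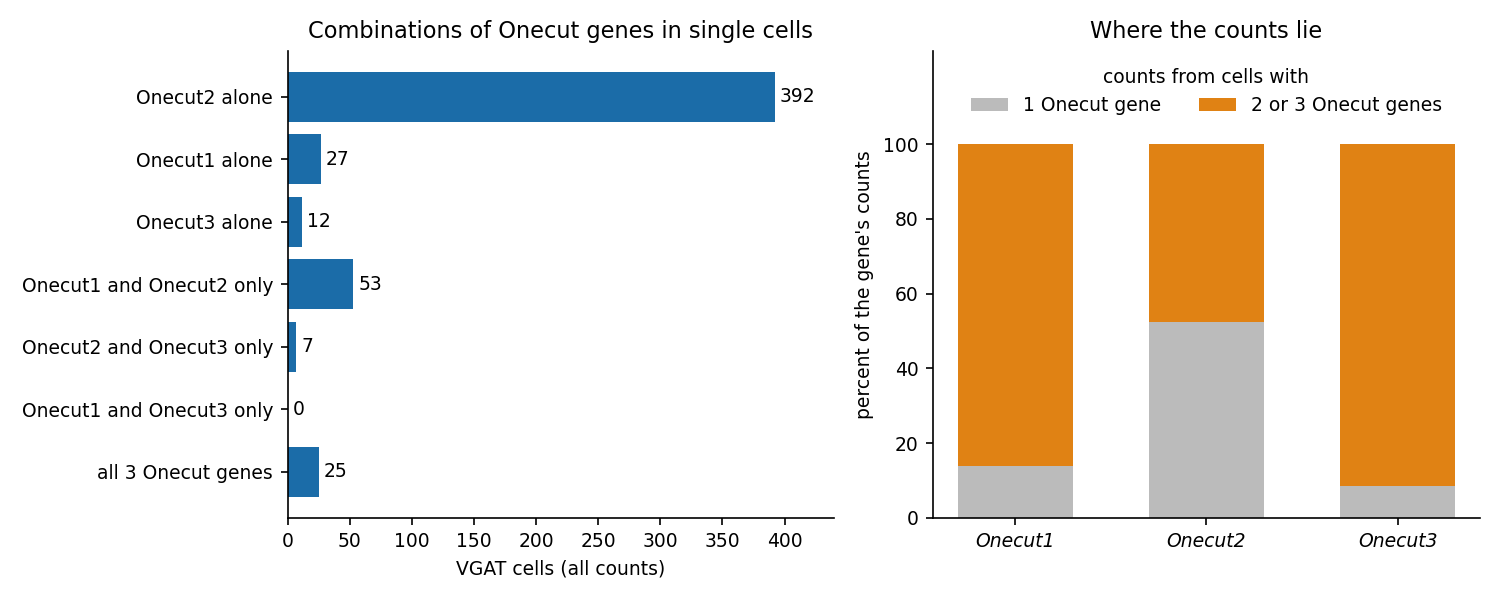
The left panel gives the number of VGAT cells, on a linear axis and with all counts used, for each combination of the Onecut genes, and the right panel splits each gene's counts into the percent from cells with 1 Onecut gene (grey) and from cells with 2 or 3 (orange). Onecut2 alone was the combination with most cells (392), 25 cells had all 3 genes and 0 had Onecut1 with Onecut3 alone, and cells with several Onecut genes held 86.2% of Onecut1 and 91.5% of Onecut3 counts.

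At the fixed depth of 4000 counts the same pairs were tested over plates, which are the unit of replication. Onecut1 was found in 18.2% of cells with Onecut2 and in 1.46% of cells without it, a mean difference of 16.8 percentage points (SD 12.5, n = 7 plates). The difference was positive on 7 of 7 plates, between 6.52 and 40 points. Cells with both numbered 28, where 6.85 would be met if the genes were spread independently within plates. An exact sign-flip permutation test over plates (two-sided) gave p = 0.0156, the smallest that 7 plates allow, and 0.0813 after adjustment over the 13 pairs tested. None of the 13 pairs had an adjusted p under 0.05. With so few plates, that needed several pairs at or near the smallest p together. The lack of a passing pair therefore does not show that the genes are unrelated.

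Onecut3 was found in 6.49% of cells with Onecut2 and 0.723% of cells without it, 14 cells against 3.32 met by independence (positive on 6 plates with a tie at 0 on VGAT P0.5 replicate 1; exact permutation p = 0.0313, adjusted 0.0813). Pou2f2 was found in 55.7% of cells with Onecut2 and 33.7% of cells without it. That difference of 22.0 points (SD 9.22, n = 7 plates) had the same sign on all 7 plates (p = 0.0156 in the exact permutation test, adjusted 0.0813). At a depth of 8000 counts the difference was 9.80 points and without thinning 12.4 points, each positive on 6 of 7 plates, with VGAT P0.5 replicate 1 at -5.71 points without thinning. For Onecut3 it was 9.21 points at 8000 counts. Onecut1 in cells with Onecut3 had enough cells on 1 plate only and was not tested. Over all plates 9 thinned cells had both, against 0.870 by independence.

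Pou2f2 went with Onecut2 and less clearly with the other Onecut genes. Onecut1 was 2.88 points more frequent in cells with Pou2f2 (exact permutation p = 0.109, adjusted 0.142), and Onecut3 was 0.397 points less frequent. Using all counts, Pou2f2 was found in 61.8% of cells with no Onecut gene, 78.7% of those with 1, 83.3% of those with 2, and 60% of those with all 3 (15 of 25).

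**Figure D3:**
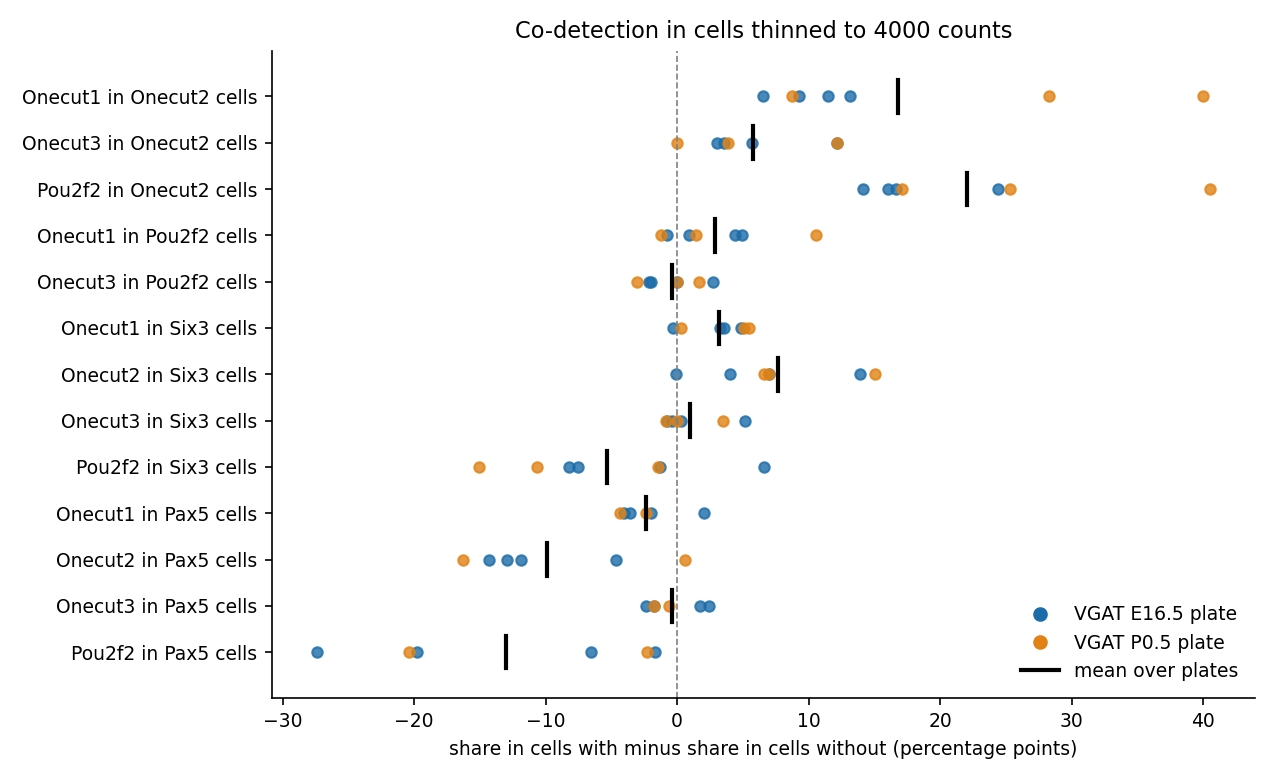
For each of the 13 pairs tested, points give the share of cells with the first gene among cells with the second gene minus the share among cells without it, in percentage points, one point per VGAT plate (blue E16.5, orange P0.5), after thinning to 4000 counts, and black bars give the mean over plates. All points for Onecut1 and for Pou2f2 in cells with Onecut2 lie above 0, and all points for Pou2f2 in cells with Pax5 lie below 0.

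Whole transcriptomes of cells with and without a member were then compared within plates, with the conditioning gene left out, cells assigned after thinning and all of their counts summed. In cells with Onecut1, all 3 other members were higher on 5 of 5 plates, where 0.400% of 11486 genes were called higher and 1.27% in either direction. Cells with Onecut1 numbered only 7 to 9 on each of these plates. Onecut2 was at 384, 399, 234, 416 and 235 CPM in cells with Onecut1 and at 62.1, 62.3, 85.2, 45.7 and 44.8 CPM in the other cells of VGAT E16.5 replicates 1, 3 and 4 and VGAT P0.5 replicates 2 and 3. The groups did not overlap, and the log2 difference was 2.45 (SE 0.19, adjusted p = 7.87e-11). Onecut3 was at 67.2 ± 28.4 against 3.90 ± 4.08 CPM (SD, n = 5; log2 difference 4.54, edgeR adjusted p = 6.05e-07). Pou2f2 was at 249 ± 79.8 against 144 ± 29.8 CPM (log2 difference 0.79, edgeR adjusted p = 0.00934), and that call was lost without VGAT P0.5 replicate 3 (adjusted p = 0.171).

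The genes most like Onecut1 in this comparison, by the size of the log2 difference over 5 plates, were led by Gm20649, which overlaps the Onecut1 gene (5.17). After Onecut3 came Nkx1-2, a homeobox gene (4.49), Pmfbp1 (3.01), Onecut2, the transcription factor gene Tfap2b (2.20), Cadps2, which encodes a factor for dense-core vesicle release (2.02), the cadherin gene Cdh23 (1.94), the GDNF receptor gene Ret (1.78) and Cep112 (1.41). Cadps2 was at 232 ± 65.0 CPM in cells with Onecut1 and 58.8 ± 15.4 CPM in those without (SD, n = 5; edgeR adjusted p = 8.99e-09). The difference for Tfap2b turned to -0.43 when spliced counts alone were used.

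Most of the other genes of the temporal sequence were lower in cells with Onecut1. When these cells were born was not measured. Of the 6 other genes of the temporal sequence tested, 4 fell and 0 rose, with a median log2 difference of -2.21 against -0.04 over all genes tested. Nfib was at 22.6, 6.66, 20.1, 97.9 and 0 CPM in cells with Onecut1 and at 497, 667, 785, 300 and 288 CPM in cells without it, in the order of plates above. Every value with Onecut1 was below every value without it, and the log2 difference was -4.48 (SE 0.34, adjusted p = 4.42e-11). Nfix fell by 3.04, Nfia by 1.39 (lower on 4 of 5 plates) and Neurod6 by 4.49, with 1 count in all cells with Onecut1 (pooled ratio 24.6, counting interval 4.39 to 971). Zfhx3 and Zfhx4 did not pass.

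Markers of other classes of the region were low in cells with Onecut1 as well. Of 8 region markers tested, 6 fell, among them the midbrain gene Otx2 (by 2.78) and Nkx2-2 (by 1.68). Pax7 and Otp had 0 counts in cells with Onecut1, at least 5.16-fold and 4.52-fold lower taking 3 counts over the group as the floor, and Pax7 moved the other way with spliced counts alone (2.72). Sst, the somatostatin gene, rose by 1.44, higher on 3 of 5 plates. Of the 6 genes listed for the Pax5 class, Pax5 (by 2.86), Bcl11b (by 2.34) and Irs4 fell, Irs4 at 0 counts and at least 7.12-fold lower. The study also places Bcl11b in a cluster with Six3, so it does not mark the Pax5 class alone. In the Six3 class Foxp2 fell by 3.44 (26.0 ± 24.5 against 297 ± 79.3 CPM) while Six3 itself rose by 0.60 (adjusted p = 0.0181, higher on 4 of 5 plates), a call lost in 7 of 12 alternatives and turned to -0.024 with spliced counts.

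Of 9 general GABAergic genes tested, Gad1, which encodes a GABA-synthesizing enzyme, rose by 0.56 and the others did not pass. Of the related cut domain genes Cux2 rose by 0.75 and Satb1 fell by 1.78, and of 7 POU genes Pou3f3 fell by 1.00. The summed level of 4 astrocyte and radial glia genes was lower in cells with Onecut1 on 5 of 5 plates (0 to 36.7 against 3.46 to 390 CPM), with Fabp7 at 2 counts against 501 (pooled ratio 9.60, counting interval 2.64 to 79.5). The summed level of 4 oligodendrocyte lineage genes was 0 in the few cells with Onecut1 and 0 to 53.4 CPM in those without it. These 4 genes were too low to be tested.

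Cells with Onecut2 gave fewer calls. All 3 other members were higher, where 0.164% of 11584 genes were called higher and 0.328% in either direction. Onecut1 was at 55.2, 44.2, 30.8 and 53.8 CPM in cells with Onecut2 on the VGAT E16.5 plates and at 46.6, 98.2 and 63.0 CPM on the VGAT P0.5 plates. In cells without Onecut2 it was between 3.91 and 6.83 CPM, with no overlap (log2 difference 3.43, SE 0.22, adjusted p = 1.09e-07). Onecut3 was at 27.1 ± 15.8 against 2.20 ± 2.86 CPM (SD, n = 7; log2 difference 3.96, edgeR adjusted p = 9.83e-05), and Pou2f2 at 259 ± 48.2 against 148 ± 40.2 CPM (0.86, edgeR adjusted p = 0.000124). Pou2f2 was higher on 7 of 7 plates and Onecut3 on 6, with both groups at 0 on VGAT P0.5 replicate 1. The differences between members in cells with Onecut1, those in cells with Onecut2 and the co-detection pairs were read in the same VGAT cells. They are therefore not separate evidence that the members go together.

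The genes most like Onecut2 over 7 plates were D930028M14Rik, inside Pou2f2 (4.18), Gm20649 (3.49), Onecut1, the zinc finger gene Cxxc5 (0.92), Pou2f2 and the adhesion gene Cntn4 (0.55). The most opposed were the elongation factor gene Ell2 (-2.14), Pax8 (-1.65), the phosphodiesterase gene Pde7b (-1.60), Gm17750 (-1.23) and Bcl11b (-1.21). In the Pax5 class Pax5 fell by 1.95, from 134 ± 115 to 44.1 ± 52.8 CPM (lower on 6 of 7 plates), and En2 by 1.26. None of the 6 temporal genes, the 8 region markers or the 10 GABAergic genes passed, and Nfib was above its level in other cells on 4 of 7 plates. Sst was at 298 ± 165 against 208 ± 141 CPM and Pnoc, which encodes a neuropeptide precursor, at 202 ± 80.6 against 135 ± 31.7 CPM (SD, n = 7; edgeR adjusted p = 0.564 and 0.224), Pnoc being higher on 7 of 7 plates.

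Cells with several Onecut genes differed from cells with 1 in the level of other genes. The genes described here were chosen after their values had been seen, so they are given without a test. Nkx1-2 was found in 15 of the 53 cells with Onecut1 and Onecut2 and in 8 of the 25 with all 3 genes, against 1 of 27 with Onecut1 alone, 1 of 392 with Onecut2 alone and 4 of 944 with none. By plate it was at 9.93 to 57.0 CPM in cells with 2 or 3 Onecut genes and at 0 to 1.42 CPM in cells with none, higher on 7 of 7 plates. In cells thinned to 4000 counts Nkx1-2 was rare, in 1 of 33 cells with 2 or 3 Onecut genes, 6 of 200 with 1 and 3 of 1175 with none.

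Nfib was at 46.5 ± 88.2 CPM in cells with 2 or 3 Onecut genes, 605 ± 251 in cells with 1 and 404 ± 185 in cells with none (SD, n = 7 plates). Foxp2 was at 20.3 ± 11.0, 405 ± 142 and 231 ± 67.3 CPM. Both were lower in cells with several Onecut genes than in cells with none on 7 of 7 plates. With all counts used, both were higher in cells with 1 Onecut gene than with none on 6 of 7 plates, but this did not hold in thinned cells, where Nfib was found in 28.5% of cells with 1 Onecut gene and 30.6% of those with none, and Foxp2 in 18.0% and 24.2%. Bcl11b, at 19.5 ± 20.7 against 255 ± 202 CPM, and Pax5, at 7.18 ± 4.99 against 165 ± 158 CPM, were lower with several Onecut genes than with none on 7 of 7 plates. In thinned cells, Nfib was found in 1 of 33 cells with several Onecut genes and 360 of 1175 with none, Foxp2 in 3 of 33 and 284 of 1175, and Pax5 in 0 of 33 and 217 of 1175.

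Other genes were higher with several Onecut genes. Cadps2 was at 179 ± 62.3 CPM in those cells and 59.0 ± 30.2 CPM in cells with none, Pou2f2 at 414 ± 202 and 119 ± 31.9 CPM and Gad2 at 675 ± 105 and 554 ± 56.1 CPM, each higher on 7 of 7 plates. The GABAergic selector gene Tal1 was lower on 7 of 7 (107 ± 28.6 against 160 ± 26.3 CPM), and its partner Gata3 on 5 of 7. Transcripts of Gad1 were found in all 25 cells with all 3 Onecut genes and of Slc32a1 in 22. Among the 944 cells with no Onecut gene, 926 had Gad1 and 779 had Slc32a1. In thinned cells Gad2 was found in 84.8% of cells with several Onecut genes and 81.3% of those with none.

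**Figure D4:**
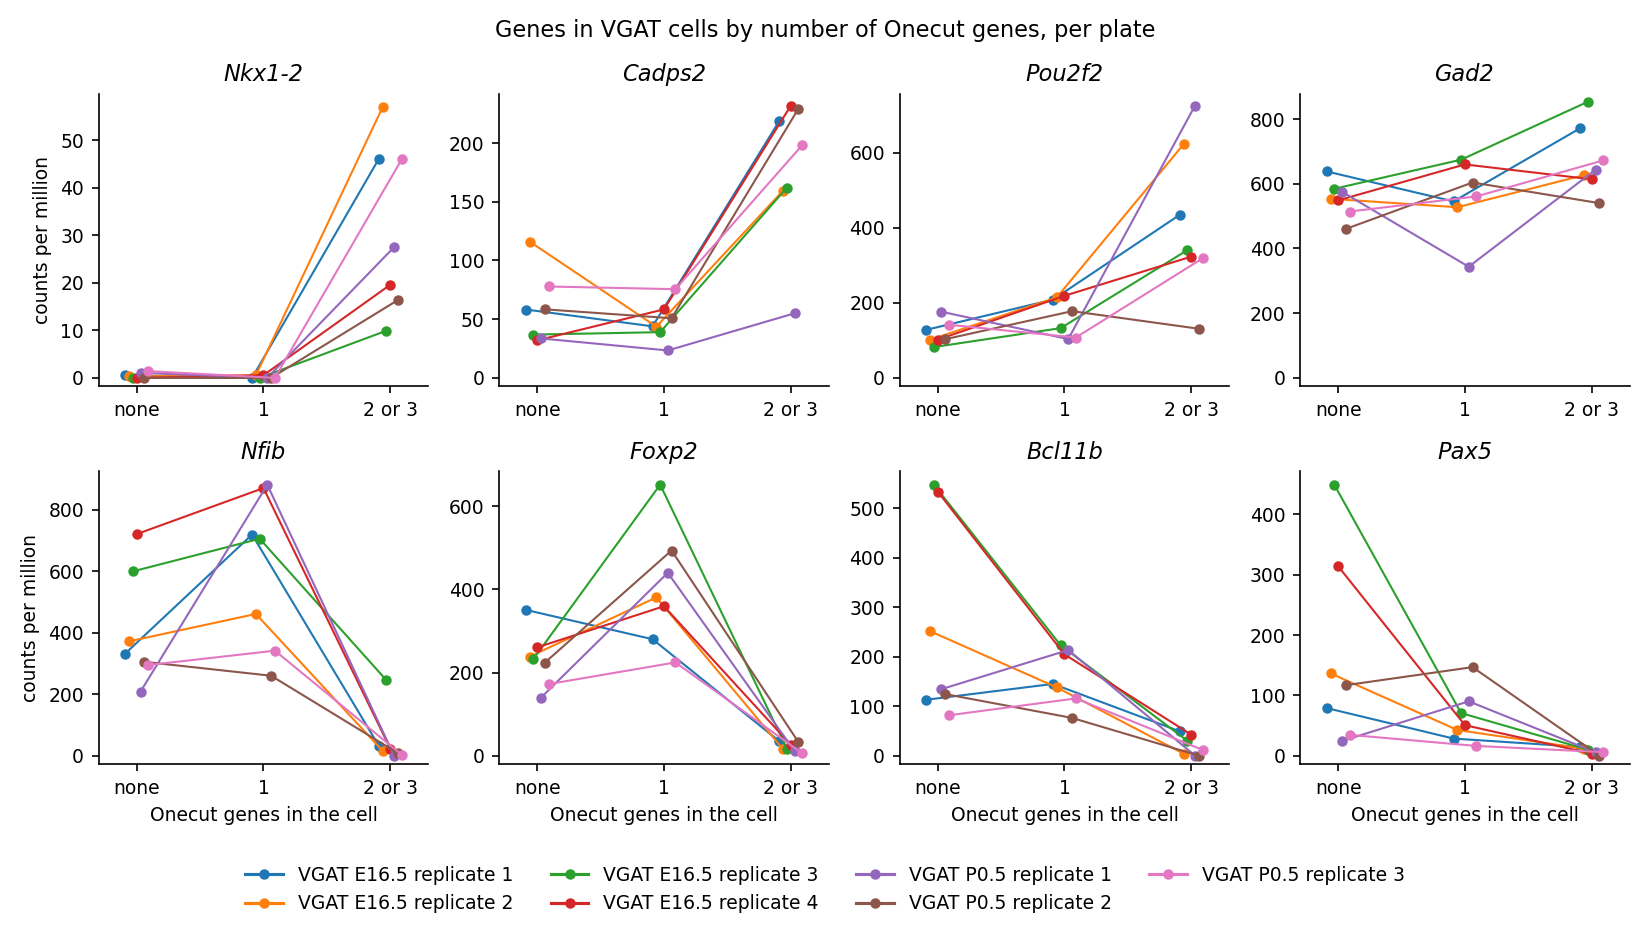
Each panel gives one gene in CPM on a linear axis of its own, in VGAT cells grouped by the number of Onecut genes found with all counts (none, 1, and 2 or 3), and each line joins the values of one of the 7 VGAT plates. Nkx1-2, Cadps2, Pou2f2 and Gad2 were higher with 2 or 3 Onecut genes than with none on every plate, and Nfib, Foxp2, Bcl11b and Pax5 were lower on every plate.

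Cells with Pou2f2 differed along other genes. None of the 3 Onecut genes passed (Onecut2 0.87, adjusted p = 0.0603; Onecut1 1.27, 0.0959; Onecut3 -0.36, 0.929), where 0.334% of 12877 genes were called. Onecut2 did pass without VGAT E16.5 replicate 2 (1.05, adjusted p = 0.0198). The genes most like Pou2f2 over 7 plates were D930028M14Rik inside its own locus (2.07) and Tac1, the substance P precursor gene (1.74; 89.1 ± 57.5 against 28.5 ± 18.4 CPM). They were followed by Zfhx3 (0.78), the Notch coactivator gene Maml2 (0.75), Gm38042 inside Zfhx3 (0.62), the calcium-binding gene Necab2 (0.61), Zfhx4 (0.55), the adhesion gene Cntn5 (0.43), Zfhx2 (0.35) and the potassium channel gene Kcnma1 (0.29).

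All 3 Zfhx genes were thus among them. Zfhx3 was at 1195, 1084, 1489 and 1506 CPM in cells with Pou2f2 on the VGAT E16.5 plates and at 697, 1128 and 791 CPM on the VGAT P0.5 plates. In cells without Pou2f2 it was at 734, 536, 781 and 785 CPM and at 636, 631 and 454 CPM in the same order, lower on every plate. The log2 difference had an SE of 0.08 and an adjusted p of 7.54e-05. Of the temporal list 2 of 6 genes, Zfhx3 and Zfhx4, rose and 0 fell, and Nfia, Nfib, Nfix and Neurod6 did not pass.

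The most opposed genes were Sp9 (-1.52), C1ql1 (-1.45), Npas1 (-1.28), Foxp2 (-1.24) and Pappa (-1.07), of which Sp9, Npas1 and Foxp2 encode transcription factors. Foxp2 was at 149 ± 79.0 against 339 ± 69.2 CPM and Bcl11b at 161 ± 136 against 239 ± 144 CPM (-0.70, edgeR adjusted p = 0.0109), each lower on 7 of 7 plates. Marker genes of other neuron types went with Pou2f2: summed levels of 5 motor and cholinergic genes (6.81 to 93.2 against 1.81 to 31.0 CPM) and 3 glutamatergic genes (2.59 to 38.3 against 1.65 to 19.6 CPM) were higher in cells with Pou2f2 on 7 of 7 plates. Their part in the result was not tested.

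The last comparison set cells with Six3 and no Pax5 against cells with Pax5 and no Six3 in the VGAT sort. All 4 members were higher in the Six3 cells, where 3.07% of 11540 genes were called higher there, 3.16% lower and 6.23% in either direction. VGAT P0.5 replicate 1 had 2 Pax5 cells and was left out. Of the plates used, VGAT E16.5 replicate 1 had 7 Pax5 cells, VGAT P0.5 replicate 3 had 6 and the others 20 to 68. Onecut1 was at 12.8, 2.78, 12.7, 23.6, 23.1 and 31.0 CPM in Six3 cells and at 7.29, 1.55, 0, 0, 5.68 and 0 CPM in Pax5 cells of VGAT E16.5 replicates 1 to 4 and VGAT P0.5 replicates 2 and 3. It was higher on 6 of 6 plates, with 128 counts against 3 (log2 difference 3.80, edgeR adjusted p = 0.000800; pooled ratio 17.7, counting interval 5.94 to 87.2).

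Onecut2 was at 92.3, 64.0, 104, 250, 102 and 105 CPM in Six3 cells and between 13.4 and 48.1 CPM in Pax5 cells, without overlap (log2 difference 2.27, SE 0.32, adjusted p = 4.98e-05). Onecut3 was at 10.9 ± 7.33 against 0.438 ± 0.715 CPM (SD, n = 6; log2 difference 3.17, edgeR adjusted p = 0.0146, higher on 5 of 6 plates), with 74 counts against 3 (pooled ratio 10.3, counting interval 3.38 to 50.9). Pou2f2 was at 133 ± 27.9 against 76.6 ± 22.6 CPM (0.84, edgeR adjusted p = 0.00189, higher on 6 of 6 plates). The calls for Onecut2 and Pou2f2 held in all 13 alternatives. That for Onecut1 was lost with spliced counts (1.40, adjusted p = 0.208) and with cells assigned without thinning (1.63, 0.177), and that for Onecut3 without VGAT E16.5 replicate 2 (0.0692) and with DESeq2 (0.0813).

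**Figure D5:**
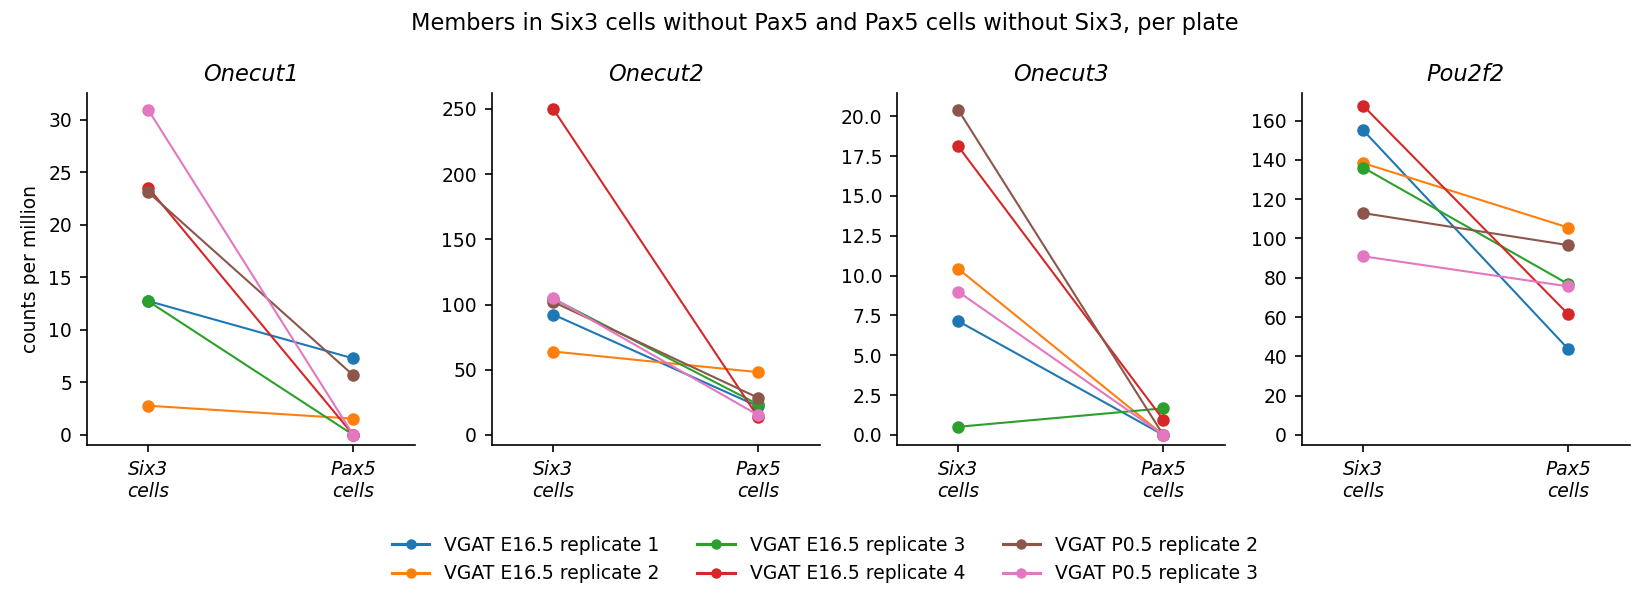
Each panel gives one member in CPM on a linear axis of its own, summed over cells with Six3 and no Pax5 and over cells with Pax5 and no Six3, and each line joins the values of one of 6 VGAT plates. All 4 genes were higher in Six3 cells on 6 of 6 plates except Onecut3, which was higher on 5.

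Relatives of the members moved in both directions between these classes. Of the temporal list Zfhx3 rose by 0.99 and Zfhx4 by 0.86 in Six3 cells, and Nfia fell by 1.71 and Neurod6 by 1.96. Among the cut domain genes Cux1 rose by 0.80 and Cux2 by 0.78. Among the POU genes Pou3f1 fell by 4.39 and Pou3f3 by 1.35, the reverse of Pou2f2. Some markers of other regions and cell types were also higher in the Six3 cells. Of 8 region markers tested 4 rose and 0 fell, namely Nkx2-2 (by 2.48, 96.5 ± 42.3 against 17.5 ± 11.0 CPM; SD, n = 6 plates), Otx2 (by 1.26), the forebrain interneuron gene Dlx1 (by 3.06) and Pnoc (by 0.73). The motor and cholinergic neuron gene Isl1 had 128 counts against 1 (pooled ratio 53.2, counting interval 9.39 to 2119), higher on 4 of 6 plates. Their part in the members' differences was not tested.

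Neither class marker was found in 691 of 1408 thinned VGAT cells. Among these cells Onecut1 was found in 18 (2.60%), against 27 of 478 Six3 cells (5.65%) and 1 of 190 Pax5 cells, all plates pooled. Onecut2 was found in 13.3%, 20.1% and 6.32% of these classes. Pou2f2 had another order, with 40.7% in cells with neither marker, 33.7% in Six3 cells and 18.9% in Pax5 cells. Tested over plates with Six3 or Pax5 as the only condition, Onecut2 was 7.64 points more frequent in cells with Six3 (higher on 6 of 7 plates; exact permutation p = 0.0313, adjusted 0.0813) and 9.90 points less frequent in cells with Pax5 (lower on 5 of 6; 0.0625, adjusted 0.116). Pou2f2 was 13.0 points less frequent in cells with Pax5 (lower on 6 of 6 plates; exact permutation p = 0.0313, adjusted 0.0813) and 5.37 points less frequent in cells with Six3 (lower on 6 of 7; 0.0781, adjusted 0.127). Without thinning, Pou2f2 was 4.17 points more frequent in cells with Six3, and in cells with Pax5 it was 6.36 points less frequent (lower on 4 of 7 plates) and Onecut2 3.58 points less frequent (lower on 5 of 7). Onecut2 in cells with Six3 was then 12.9 points more frequent, on 7 of 7 plates.

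Reads from introns made up different parts of the members' counts, which bears on every value made with spliced counts alone. In VGAT cells 43.6% of the 282 Onecut1 counts were intronic (95% exact binomial interval 37.7 to 49.6). For Onecut2 the share was 9.70% (8.33 to 11.2), for Onecut3 19.1% (13.0 to 26.6) and for Pou2f2 18.2% (17.0 to 19.4). Over all genes the share was 26.0%, in the cells of both sorts together. Spliced counts left 159 Onecut1 counts in all VGAT cells.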

How the data were processed

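Sorted cells were sequenced by SORT-seq, a plate form of CEL-Seq2 that counts molecules by random barcodes (UMIs) at the 3′ end of transcripts. The deposited tables held expected counts: UMI counts that the authors corrected for barcode collisions (51.7% of the values above 0 were not whole), after alignment with STAR to mm10 per the labels. Spliced and unspliced tables of the same counts were deposited beside the total. A count test was used on plate sums rounded to whole numbers, with spike-in and mitochondrial entries left out. For shares, each cell was rounded and thinned at random to 4000 counts.

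The quasi-likelihood test of edgeR 4.0.16 was run on plate sums after its filterByExpr filter and TMM scaling, with a Benjamini-Hochberg threshold of 0.05 over all genes tested. It was checked on simulated data, and DESeq2 1.42.0 was an alternative (both under R 4.3.3). Cells with and without a gene were summed per plate where both classes had at least 5 cells, with plate as a term. Onecut3 reached that on 1 plate and was not fitted. Co-detection was tested by exact two-sided sign flips over plates. One cell was sorted per well, and no doublet caller was run. Genes named after a fit were the 10 highest and 5 lowest by log2 difference among those called with the same direction on every plate, and the genes of the lists described. The members and lists were chosen with earlier results of these data known, and some genes of the lists are not reported here. Alternatives covered the test, scaling, filters, thinning, spliced counts and each plate left out. Other steps used Python 3.11.15 (pandas 2.3.3, numpy 2.4.6, scipy 1.17.1), and matplotlib 3.10.9 drew the plots.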

Additional observations from a re-analysis of the deposited data

Results flagged for a closer look

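Each member's level and share over the VGAT E16.5 plates, and each co-detection difference over the plates used, was checked for a value far from the rest, and 1 stood out. The share of thinned cells with Onecut3 was 2.19% on VGAT E16.5 replicate 1 and 1.32% to 1.37% on the other plates of that group, so that the gap to the nearest plate took up 0.943 of the range. All of these shares rest on 3 or 4 cells per plate, and the 95% exact binomial interval of the high one (0.599 to 5.50%) covers the others. Chance flags about 1 in 20 such groups.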

How the results depend on the processing

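Of the recomputed values that answer a comparison, 276 kept their direction and size, 33 moved and 7 turned direction. Of the other recomputed values, 775 stayed the same, 19 became stronger, 160 became weaker, 34 moved and 12 turned direction. Over all genes, the sort comparison called 1306, with 625 to 1397 as each plate was left out in turn (625 without the VGAT+Pitx3 plate of E16.5 and 866 without that of P0.5). The stage comparison called 624, with 76 to 833 as each plate was left out (265, 92 and 130 without VGAT E16.5 replicates 1, 3 and 4, 162 and 76 without VGAT P0.5 replicates 2 and 3), 959 with DESeq2 and 1588 with no filter on low counts. The difference of the stage change between sorts called 0, also as each plate was left out (0 to 0), 4 with DESeq2 and 66 with no filter. Six3 against Pax5 cells called 719, with 437 (without VGAT E16.5 replicate 3) to 695 as each plate was left out, 350 with no plate term and 332 with cells assigned without thinning.

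Cells with against without Onecut1 called 146, with 83 to 187 as each plate was left out (90 when it was VGAT E16.5 replicate 1, 83 when it was VGAT P0.5 replicate 3), 82 with DESeq2, 344 with no filter, 21 with no plate term, 44 with spliced counts and 292 with cells assigned without thinning. For Onecut2 the main count was 38, with 16 (without VGAT E16.5 replicate 4) to 56 as each plate was left out, 248 with no filter, 2 with no plate term, 77 with spliced counts, 82 without cells over 2 times the median count of their plate and 94 with cells assigned without thinning. For Pou2f2 it was 43, with 24 (without VGAT E16.5 replicate 4) to 51 as each plate was left out, 312 with no filter, 0 with no plate term, 101 with spliced counts and 83 with cells assigned without thinning.

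Some directions turned, and the cause was not tested. The stage difference of Onecut1 was -0.022 with spliced counts. That of Onecut3 was -1.15 to 0.33 as each plate was left out, and turned when VGAT E16.5 replicate 2 (0.05) or either of VGAT P0.5 replicates 1 (0.33) and 3 (0.10) was left out. That of Pou2f2 was -0.22 to 0.23, turning when VGAT E16.5 replicate 3 (-0.06) or VGAT P0.5 replicate 1 (-0.22) was left out, and was -0.018 with no filter. In cells with Onecut1, spliced counts gave -0.024 for Six3, -0.43 for Tfap2b and 2.72 for Pax7. In cells with Pou2f2, Onecut3 was at -1.09 to 0.27 as each plate was left out, turning without VGAT E16.5 replicate 2, and Six3 at 0.15 with cells assigned without thinning.

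Co-detection differences with each plate left out were 12.9 to 18.5 points for Onecut1, 4.71 to 6.73 for Onecut3 and 18.9 to 23.3 for Pou2f2 in cells with Onecut2. In cells with Pou2f2, Onecut1 was at 1.60 to 3.57 and Onecut3 at -0.913 to 0.0498, with 0.767 without cells over 2 times the median. In cells with Six3, Onecut1 was at 2.80 to 3.76 (-0.499 with spliced counts), Onecut2 at 6.40 to 8.92, Onecut3 at 0.288 to 1.28, and Pou2f2 at -7.37 to -3.76 (4.17 without thinning). In cells with Pax5, Onecut1 was at -3.28 to -1.99 (1.09 with spliced counts), Onecut2 at -12.0 to -8.63, Onecut3 at -0.966 to 0.00146 (0.235 without cells over 2 times the median), and Pou2f2 at -15.3 to -10.1.

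The labels number plates within each stage. Same-numbered VGAT plates of the 2 stages did not deviate together (a correlation of 0.03 in each of 3 pairs, against -0.06 to 0.06 over all 12 pairings), so the numbers name plates and do not pair them. With the replicate number as a block, the stage comparison called 202 genes and the sort comparison 914, and no member passed for stage.

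Among calls on members, those for Onecut2 and Pou2f2 in Six3 against Pax5 cells, Onecut2 in cells with Onecut1, and Onecut1 and Onecut3 in cells with Onecut2 were kept in every alternative that gave a value. The call for Onecut3 in cells with Onecut1 was lost with spliced counts (2.85, adjusted p = 0.0749), and those for Pou2f2 in cells with Onecut1 (adjusted p = 0.169) and with Onecut2 (0.101) with no plate term. Onecut3 passed in the sort comparison with DESeq2 (adjusted p = 0.0224) and without VGAT P0.5 replicate 1 (0.0145). Depth limits all 4 members, since a single count was all that 48 of 105 VGAT cells with Onecut1, 203 of 477 with Onecut2, 20 of 44 with Onecut3 and 322 of 987 with Pou2f2 had.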

Other observations

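Cells were also divided by markers of other classes, thinned to 4000 counts, and the members' shares are given as a description. Onecut2 was more frequent in cells with Otx2, a forebrain and midbrain patterning gene: 21.6% ± 9.54 of cells with Otx2 and 12.4% ± 2.66 of cells without it had Onecut2 (SD, n = 7 plates), higher on 6 of 7. Onecut2 was also more frequent in cells with Tcf7l2, a Wnt pathway transcription factor gene, by 4.07 points and on 7 of 7 plates. In cells with Bcl11b, Onecut2 was less frequent by 11.2 points and Onecut1 by 4.32 points, each on 7 of 7 plates. Pou2f2 was less frequent in cells with Foxp2 by 12.0 points and more frequent in cells with Zfhx3 by 15.2 points and with Zfhx4 by 10.5 points, each on 7 of 7 plates.

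Onecut1 was found in 0 of 97 cells with Irs4, 0 of 80 with Neurod6, 0 of 57 with Pax7 and 0 of 56 with Otp, over all VGAT plates. With the genes spread independently within plates, 3.14, 2.58, 2.17 and 2.06 such cells would be met on average. Expected numbers this low can give 0 by counting error. The same genes were already low in the comparison of these cells by Onecut1, so the zeros are not separate evidence. In cells with Sst the share with Onecut1 was 8.79% ± 6.43, against 2.35% ± 2.05 in those without it (SD, n = 6 plates), higher on 5 of 6.

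In the 250 bases before the start that RefSeq's table gives for Onecut1 the GC content was 71.6%, and before the one it gives for Pou2f2 it was 64.8%, against a median of 52.4% over 32851 such windows of RefSeq genes. The Pou2f2 window lies inside the gene as GENCODE annotates it, at an internal start, and 52 of its bases are exonic there. Neither window held the letters ATCAAT or ATCGAT, which occur in sites of Onecut proteins, or ATGCAAAT, the octamer bound by Pou2f2, on either strand. These letters were found in 6.72%, 0.728% and 1.60% of all windows.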
